A study of Homo sapiens with 12 samples.

Results

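The genes examined here encode 8 proteins that make and export microRNAs (miRNAs): DROSHA, DGCR8, DDX5, DDX17, XPO5, DICER1, TARBP2 and PRKRA. They were chosen by name, and each was found in 1 of the 61782 rows of the deposited tables. The row of DROSHA also carried the clone name AC106802.1, so that its values cannot be assigned to DROSHA alone, and the other rows carried 1 name each.

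RNA was recovered by immunoprecipitation from K562, an erythroleukemia line of human origin, and sequenced. Per the methods of the study a derivative with an estradiol-inducible C/EBPα (K562-C/EBPα-ER) was used, without a stimulus being named for this experiment. All cells carried a Biosettia lentiviral vector and were kept under puromycin, either pLV-miR-143 (mir-p114) or pLV-control (mir-p000), as transduced populations and not as single clones. Each population was precipitated with an antibody against Argonaute 2 (AGO2), the protein that carries mature miRNAs, or with unspecific immunoglobulin (IgG, the mock). The 12 samples form 4 groups of 3, from 3 independent experiments per the design text, control_IgG, control_AGO, miR143_IgG and miR143_AGO. The authors deposited 1 average per gene and group, in FPKM (fragment counts divided by transcript length and by the number of mapped fragments). None of the values below therefore has an error between replicates or a test, and whether groups overlap could not be seen. No group holds the input RNA of the cells, so that a change in a transcript's cellular level and a change in its recovery cannot be told apart, nor can fewer expressing cells and less RNA per cell.

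MiRNA genes are transcribed into long primary transcripts. In the nucleus the RNase III enzyme DROSHA and its RNA-binding partner DGCR8, together the Microprocessor, cut out a hairpin, with the DEAD-box helicases DDX5 (p68) and DDX17 (p72) as accessory factors for a subset of hairpins. Exportin 5 (XPO5) carries the hairpin to the cytoplasm, where DICER1, with TARBP2 (TRBP) or PRKRA (PACT), cuts it to the duplex that is loaded into an Argonaute protein. What was sequenced here is the mRNA of these enzymes and not the enzymes themselves. An mRNA found with AGO2 is one that was precipitated with it, directly or not.

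The vector miRNA is shown first, because the search for its sites in the enzymes' own mRNAs rests on its seed, bases 2 to 8, in capitals. The sequence is that of RefSeq (GRCh38.p14).
hsa-miR-143-3p: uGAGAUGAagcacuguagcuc
The longest 3′ UTRs of the members (GENCODE 29) were searched on the transcript strand for TCATCTC (7mer-m8), CATCTCA (7mer-A1) and TCATCTCA (8mer), an 8mer being counted once. Such a match was found in 2 of the 8 genes, against 22.9% of 15210 coding genes, and no member held the 8mer. The sites are printed with 8 bases on each side, the match in capitals, 5′ to 3′ on the minus strand of GRCh38.
XPO5, chr6:43523817-43523839, 7mer-m8: ctttcttgTCATCTCttctttcc
DDX17, chr22:38485169-38485191, 7mer-A1: aactgtagCATCTCAgcatctgg
A match is a description of the sequence and not evidence that the site is used.

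The samples were those the labels name as far as these genes can tell. The MIR143 row was listed at 0 without the miR-143 vector (control_IgG, control_AGO), and with it stood at 44781 FPKM (miR143_IgG) and 118393 FPKM (miR143_AGO). All 9 rows of the 11 K562 genes looked up (fetal and embryonic globins, erythroid regulators and surface proteins) were above 0 in at least 1 group, and the lymphoid and monocytic genes CD3E, MS4A1 and CD14 were listed at 0 in all groups. Depth was read from the low values. The lower end of the products of FPKM and transcript length (the low edge) lay 12.9 times higher in control_IgG than in miR143_AGO, the highest edge of the 4 groups, so that low values were least resolved in control_IgG. The members lay between 71.0 times (XPO5) and 354 times (DDX17) above this edge in control_IgG, and at least 149 times above it in the other groups. Rows of 1 coding gene took 7.90% and 8.38% of the summed FPKM in the mock groups (control_IgG and miR143_IgG), and 42.0% and 37.2% in control_AGO and miR143_AGO.

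XPO5 was the member that stood highest in the AGO2 precipitates. It averaged 9.33 FPKM (control_IgG) and 11.2 FPKM (miR143_IgG) in the mock, and 166.8 FPKM (control_AGO) and 86.0 FPKM (miR143_AGO) with AGO2. Both AGO values were thus far above both mock values. Only 1.45% of the coding rows above 0 in control_AGO and 2.53% of those in miR143_AGO were as high. By plain ratios of AGO over IgG, XPO5 was 17.9 times higher in control cells and 7.64 times higher with miR-143. On the log2(FPKM + 1) scale, which is used for all log2 ratios below and understates low genes, the ratios were 4.02 and 2.83. Among 543 coding rows of like mean level (within 0.5 log2 units), 0.368% had as high a ratio as XPO5 in control cells, and among 665 in miR-143 cells 3.31% did. Over all coding rows compared the shares were 1.82% and 2.88%. XPO5 lies at chr6:43522330-43576075 on the minus strand and shares 348 exonic bases with POLR1C on the opposite strand. POLR1C, a subunit of RNA polymerases I and III, averaged 10.4 FPKM (control_IgG) and 17.5 FPKM (control_AGO) in control cells, then 38.8 FPKM (miR143_IgG) and 23.9 FPKM (miR143_AGO) with miR-143, a different order of groups from that of XPO5.

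**Figure D1:**
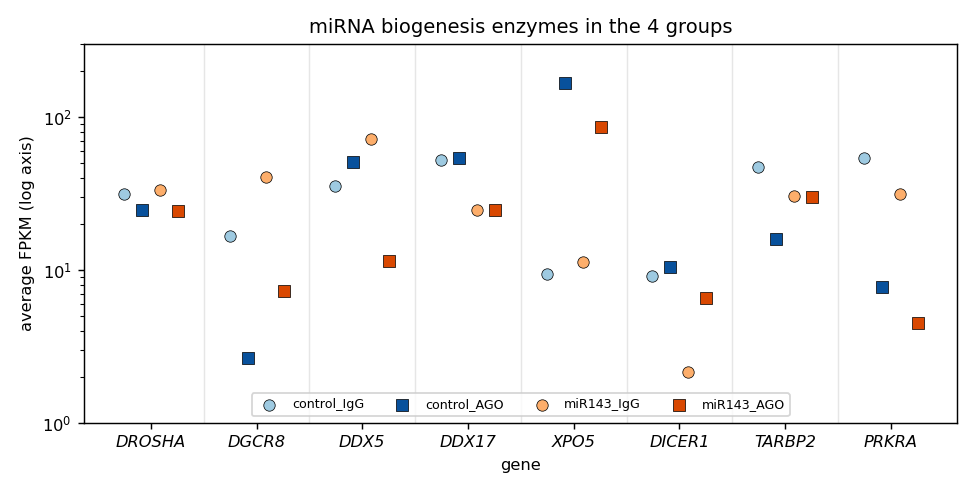
Average FPKM (log axis) of the 8 genes in the 4 groups, 1 deposited average per point, circles for IgG and squares for AGO precipitates. The squares of XPO5 (166.8 and 86.0 FPKM) lie far above its circles, those of DGCR8 and PRKRA below theirs, and the 4 points of DROSHA lie between 24.3 and 33.5 FPKM.

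The core of the Microprocessor, DROSHA and DGCR8, differed in how it was recovered. The joined DROSHA row averaged 31.4 FPKM (control_IgG) and 24.8 FPKM (control_AGO) in control cells, then 33.5 FPKM (miR143_IgG) and 24.3 FPKM (miR143_AGO) with miR-143. It varied least of all members, with the highest value 1.38 times the lowest. DGCR8 was at 16.6 FPKM in control_IgG and 40.6 FPKM in miR143_IgG, but at 2.66 FPKM in control_AGO and 7.29 FPKM in miR143_AGO. DGCR8 mRNA was therefore 6.24 times lower in AGO than in IgG in control cells and 5.57 times lower in miR-143 cells by plain ratios. DROSHA stood at 1.89 times (control_IgG) and 0.825 times (miR143_IgG) the level of DGCR8 in the mock, and at 9.33 times (control_AGO) and 3.33 times (miR143_AGO) with AGO2. The log2 ratios of AGO over IgG were −2.26 and −2.33 for DGCR8 and −0.33 and −0.45 for DROSHA, in control and in miR-143 cells. The sign for DROSHA depended on scaling, since with the groups brought to the same summed FPKM of coding rows the values were 0.18 and 0.04. Of the 50-base runs in the longest coding transcript of DGCR8, 11.3% occurred in other annotated genes, mainly the antisense gene AC006547.2 and the miRNA genes inside DGCR8, so that fragments there may have been split.

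DGCR8 is known as a transcript that the Microprocessor cuts itself, at hairpins in its own mRNA, and the mature miRNAs of these hairpins are therefore shown. In the longest coding transcript of DGCR8 (chr22:20080232-20111877, plus strand) the sequence of miR-3618 lay in the 5′ UTR and both arms of miR-1306 lay in the coding region. The sequences are those of RefSeq, with the seed in capitals, and those of miR-1306 start at chr22:20086072 and chr22:20086112.
hsa-miR-3618: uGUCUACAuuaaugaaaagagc
hsa-miR-1306-5p: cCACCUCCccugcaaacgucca
hsa-miR-1306-3p: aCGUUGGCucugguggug
No row named MIR3618 or MIR1306 was found, and these miRNA genes were not analysed here, so that fragments from the hairpins cannot be set against those from the rest of the DGCR8 mRNA.

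The helicases DDX5 and DDX17 are close paralogues, but no run of 50 bases in the longest coding transcript of either occurred in a transcript of the other or of any further gene. DDX5 averaged 35.6 FPKM (control_IgG) and 50.4 FPKM (control_AGO) in control cells, then 71.5 FPKM (miR143_IgG) and 11.5 FPKM (miR143_AGO) with miR-143. Its lowest value was thus in the AGO2 precipitate of miR-143 cells and its highest in the mock precipitate of the same cells. The log2 ratio of AGO over IgG was 0.49 in the control population, against −2.54 with miR-143. DDX17 was at 52.1 FPKM in control_IgG and 53.8 FPKM in control_AGO, and at 24.7 FPKM in both precipitates of miR-143 cells. For DDX17 the level differed between the cells and hardly between the precipitates, with log2 ratios of AGO over IgG of 0.05 and 0.00. DDX5 was 2.89 times as high as DDX17 in miR143_IgG and 0.465 times as high in miR143_AGO. DDX5 lies at chr17:64499616-64508199 on the minus strand and shares 506 exonic bases with CEP95, a centrosomal protein gene on the opposite strand, whose row was below that of DDX5 in each group (15.4 FPKM in control_IgG and at most 2.21 FPKM elsewhere).

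On the cytoplasmic side, DICER1 and its partners TARBP2 and PRKRA did not share 1 pattern. DICER1 averaged 9.11 FPKM (control_IgG) and 10.4 FPKM (control_AGO) in control cells, then 2.16 FPKM (miR143_IgG) and 6.53 FPKM (miR143_AGO) with miR-143. It was the lowest member in both mock precipitates, and neither AGO value was below the mock value of the same cells. Its plain ratio of AGO over IgG was 1.14 in the control population and 3.02 with miR-143, and the latter divides by the lowest of all member values. TARBP2 was at 46.9 FPKM in control_IgG and 15.9 FPKM in control_AGO, but at 30.3 FPKM in miR143_IgG and 29.8 FPKM in miR143_AGO. It was thus 2.95 times lower in AGO than in IgG in control cells, with hardly a difference in miR-143 cells. PRKRA averaged 53.6 FPKM (control_IgG) and 31.5 FPKM (miR143_IgG) in the mock, and 7.71 FPKM (control_AGO) and 4.46 FPKM (miR143_AGO) with AGO2. It was lower in AGO by nearly the same factor in both cell populations, 6.95 and 7.06 by plain ratios. TARBP2 and PRKRA were of like level in the mock precipitates (ratios of 0.876 and 0.962), while TARBP2 was 2.06 times higher in control_AGO and 6.67 times higher in miR143_AGO.

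DICER1 has the longest 3′ UTR of the members (4270 bases, and 10.1% of coding genes have one as long). Its mRNA is known as a target of let-7 and of miR-103, and the 8mers of miR-103 are shown because DICER1 held the most matches to any 1 seed among the members. For the seed of miR-103a-3p (ATGCTGC as 7mer-m8, TGCTGCA as 7mer-A1 and ATGCTGCA as 8mer) 6 matches were found in DICER1, 4 of them 8mers, against 1 in DGCR8 and none in the other 6 members, and 22.7% of coding genes held at least 1. The 8mers lay on the minus strand of chromosome 14 and are printed with 8 bases on each side.
DICER1, chr14:95089449-95089472: cctaaaatATGCTGCAgattttat
DICER1, chr14:95088848-95088871: ttcgtggaATGCTGCAtttatatg
DICER1, chr14:95086373-95086396: accatcacATGCTGCAgctgtttt
DICER1, chr14:95086321-95086344: cagtaatcATGCTGCAgaaatttg
For let-7 (CTACCTC as 7mer-m8, TACCTCA as 7mer-A1 and CTACCTCA as 8mer) 2 matches were found in DICER1 and 2 in TARBP2, with 16.2% of coding genes holding 1 or more. For miR-17 (GCACTTT as 7mer-m8, CACTTTA as 7mer-A1 and GCACTTTA as 8mer) DROSHA and DICER1 held 1 match each, and 28.2% of coding genes held 1 or more. For miR-19 (TTTGCAC as 7mer-m8, TTGCACA as 7mer-A1 and TTTGCACA as 8mer) DDX17, DICER1 and PRKRA held 1 each, that of PRKRA being an 8mer, and 19.9% of coding genes held 1 or more. DDX5, with a longest 3′ UTR of 359 bases, held no match to any of the 5 seeds.

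Whether the number of matches goes with the recovery by AGO2 was not tested. The totals cover 5 chosen seeds and were not adjusted for 3′ UTR length. XPO5, with the highest ratios of AGO over IgG, held 1 match in all, that to the miR-143-3p seed. The MIR143 row was listed at 0 without the miR-143 vector, but the mature miRNA was not measured here. The study followed miR-143 by qPCR in K562-C/EBPα-ER cells, so this 0 does not show that mature miR-143 was absent. DICER1 with 10 matches had ratios of 0.17 without and 1.25 with miR-143, the latter the highest there after XPO5. DDX5 with 0 matches stood at 0.49 and −2.54, the latter above only PRKRA. PRKRA, with the lowest ratio in both cell populations, held 1 match, an 8mer for miR-19.

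Enrichment of all members over the mock was then counted at a threshold of 2-fold. Among the 8 in control cells, 1 (XPO5) was past this threshold upward and 3 (DGCR8, TARBP2 and PRKRA) were past it downward. Of the 9919 rows compared, 34.5% were higher by this rule and 36.2% lower, so that the share of lower members was near that of all rows. Scaling the groups to the same median FPKM, which moved the median of all rows by 0.65, changed the split of the members to 2 higher (with DDX5) and 2 lower (without TARBP2), and that of all rows to 42.5% higher and 27.1% lower (41.1% and 28.5% with the same coding sum). In miR-143 cells 2 members were higher (XPO5 and DICER1) and 3 lower (DGCR8, DDX5 and PRKRA), against 26.6% and 33.5% of 10643 rows. With the groups scaled to the same upper quartile or coding sum, 33.9% or 34.7% of rows were higher there and 26.5% or 25.5% lower. The median log2 ratio of the members was −0.14 without and −0.24 with miR-143, beside −0.19 and −0.22 over all rows compared. All of these medians turned positive under each scaling. The study set a 10-fold threshold for AGO2 binding in miR-143 against control cells, a different ratio from the one used here. At 10-fold over the mock only XPO5 in control cells was left, where 4.38% of rows were as much higher and 4.98% as much lower. In miR-143 cells no member was past it, against 1.6% of rows higher and 3.67% lower. The ratios of single members ran from −2.65 to 4.02 in control cells.

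**Figure D2:**
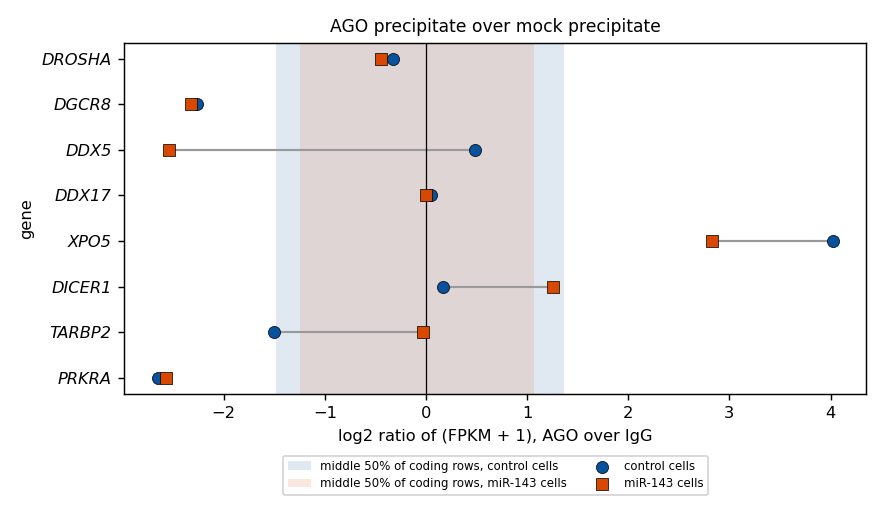
Log2 ratio of (FPKM + 1) in the AGO over the IgG precipitate for each gene, circles for control and squares for miR-143 cells, with the middle 50% of coding rows shaded. XPO5 lies to the right of the shading and DGCR8 and PRKRA to the left in both cell populations, while DDX5 moves from 0.49 to −2.54.

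The control and the miR-143 cells share no library in these ratios. The 1 member past 2-fold upward in both was XPO5, and DGCR8 and PRKRA were past it downward in both. Over the 8648 rows in both comparisons 15.0% were higher in both and 16.4% lower in both. DROSHA and DDX17 stayed within 2-fold in both.

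The study asked which mRNAs AGO2 holds once miR-143 is overexpressed, and the members were compared between the 2 AGO2 precipitates for this. DGCR8 was 2.74 times higher in miR143_AGO by the plain ratio (log2 ratio 1.18). DDX5 was 4.38 times lower (−2.04) and DDX17 2.17 times lower (−1.09). These were the members past 2-fold, 1 of 8 higher and 2 of 8 lower, against 17.7% higher and 14.1% lower of 9798 rows. With the groups scaled to the same upper quartile the split was 2 higher (DGCR8, and TARBP2 at 1.03) and 1 lower (DDX5), since DDX17 was at −0.93, and that of all rows 22.7% and 12.3%. With the same median XPO5 was also past 2-fold (−1.06), and DGCR8 was not compared where a mean of at least 5 FPKM was required. XPO5 was 1.94 times lower (−0.95), PRKRA 1.73 times lower (−0.67) and DICER1 1.59 times lower (−0.60). TARBP2 was 1.87 times higher (0.86), and DROSHA was near the same level (−0.03). The members had a median log2 ratio of −0.63, beside a median of 0.17 over all rows. Below 0 were 6 of 8, DROSHA at −0.03 being the nearest to 0 among them, and 41.7% of coding rows were as low as DROSHA. How many of all rows were below 0 was not counted. The middle 50% of coding rows ran from −0.45 to 0.73. Among 777 coding rows of like level 3.86% were as low as DDX5. XPO5 and DDX17, the members with a match to the miR-143-3p seed, both had lower FPKM in miR143_AGO than in control_AGO, as had 4 of the 6 members without one (DROSHA among them, at −0.03, and at 0.13 with the groups scaled to the same upper quartile). Whether the ratio goes with the match was not tested. No member was past 10-fold, against 0.286% of rows higher and 0.745% lower.

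The mock precipitates were compared in the same way, as the background of the assay. DGCR8 was 2.45 times higher in miR143_IgG than in control_IgG (log2 ratio 1.24) and DDX5 2.01 times higher (0.98). DICER1 was 4.22 times lower (−1.68) and DDX17 2.11 times lower (−1.05). By the 2-fold rule on log2(FPKM + 1), 1 of 8 members was higher and 2 were lower, against 36.2% and 26.8% of 10172 rows. DDX5 lay at the threshold and was past it with smaller pseudocounts, plain ratios and each scaling (1.00 to 1.21), while DDX17 was not past it with the same median (−0.81) or upper quartile (−0.92). The median over the members was −0.26, beside 0.17 over all rows. DGCR8 and DDX17 thus had nearly the same miR-143 over control ratio in the mock as in the AGO2 precipitates, and so had PRKRA (−0.75 in IgG and −0.67 in AGO). For DDX5 the ratio was above 0 in the mock and below 0 in the AGO2 precipitates, and for TARBP2 it was the other way round (−0.61 in IgG and 0.86 in AGO).

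**Figure D3:**
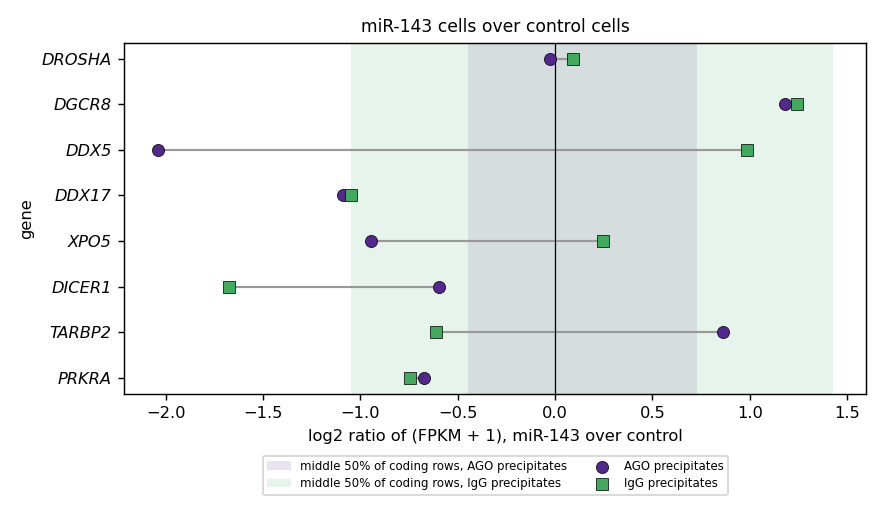
Log2 ratio of (FPKM + 1) in miR-143 over control cells for each gene, circles for the AGO and squares for the IgG precipitates, with the middle 50% of coding rows shaded. The points of DGCR8, DDX17 and PRKRA nearly coincide, whereas those of DDX5 lie at −2.04 (AGO) and 0.98 (IgG).

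The IgG-corrected ratio, AGO over IgG in miR-143 cells over the same ratio in control cells, uses all 4 groups. It was −3.02 for DDX5 and −1.19 for XPO5, and 1.48 for TARBP2 and 1.08 for DICER1 on the log2 scale. That of DICER1 was 0.73 with the groups scaled to the same median and 0.99 with the same coding sum, so that TARBP2 was then the 1 member at least 2-fold higher. Without scaling these were 2 of 8 members at least 2-fold higher and 2 at least 2-fold lower, against 29.0% and 33.5% of 11914 rows. The other members were near 0, with −0.12 for DROSHA, −0.06 for DGCR8, −0.04 for DDX17 and 0.07 for PRKRA. Among 567 coding rows of like level 1.94% were as low as DDX5, while 15.6% of 553 were as low as XPO5. Over all coding rows compared the shares were 6.92% and 27.6%. The median of the members was −0.05, beside −0.09 over all rows.

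The order of the members by level per length changed with the precipitate. In control_IgG it ran from PRKRA and DDX17 over TARBP2, DDX5, DROSHA and DGCR8 to XPO5 and DICER1. In control_AGO XPO5 came first, followed by DDX17, DDX5, DROSHA, TARBP2, DICER1, PRKRA and DGCR8. In miR143_IgG DDX5 and DGCR8 led, and DICER1 was again last. In miR143_AGO XPO5 was first, TARBP2, DDX17 and DROSHA followed at 24.3 to 29.8 FPKM, and PRKRA was last. Without replicates it cannot be said which neighbours in these orders differ.

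Other genes of miRNA maturation were examined as a list of 30, written from general knowledge. In control cells, AGO over IgG was past 2-fold upward for 1 of 17 nuclear cofactors and downward for 10, and in miR-143 cells for 1 and 9. Over all rows compared, 34.5% were higher and 36.2% lower in control cells, and 26.6% and 33.5% in miR-143 cells. The medians of the cofactors were −1.32 and −1.38, beside −0.19 and −0.22 over all rows. At least 2-fold lower in both cell populations were 6 of the 17, against 16.4% of the 8648 rows in both comparisons. Among them were NCBP1 (cap binding), HNRNPA1, HNRNPA2B1 and SRSF3 (splicing factors) and ERH. Their log2 ratios in control and then miR-143 cells were −1.72 and −2.92 (NCBP1), −2.27 and −1.95 (HNRNPA1), −2.70 and −2.27 (HNRNPA2B1), −1.57 and −1.86 (SRSF3), and −3.75 and −2.77 (ERH). HNRNPA1, the highest of these in each group, averaged 225.6 FPKM (control_IgG) and 46.1 FPKM (control_AGO) in control cells, then 245.5 FPKM (miR143_IgG) and 63.0 FPKM (miR143_AGO) with miR-143. No nuclear cofactor was 2-fold higher in both, against 15.0% of the rows in both comparisons. RAN, the GTPase that exportins need, had ratios of −2.58 and −2.55, and XPO1, the exportin of many proteins, −1.65 and −0.67, so that neither shared the direction of XPO5. Of 11 cytoplasmic factors that trim, tail or bind precursors, LIN28A was listed at 0 in all groups. Among the 8 compared in control cells 1 was at least 2-fold higher and 4 were lower, and among the 9 compared in miR-143 cells 2 were higher and 4 lower. The shares of all rows are those given for the cofactors. Of the 7 in both comparisons, SND1, whose row is joined (−1.02 and −1.24), TSN (−3.24 and −1.43) and PNPT1 were lower in both. PNPT1 was listed at 0 in control_AGO, so that no fold is given for it. SRRT (ARS2), which links the cap-binding complex to primary miRNA processing, had the highest IgG-corrected log2 ratio of the list (4.05), from 40.7 FPKM (control_IgG) and 1.14 FPKM (control_AGO) in control cells and 6.90 FPKM (miR143_IgG) and 5.72 FPKM (miR143_AGO) with miR-143.

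Between the AGO2 precipitates 23 of the 28 genes of this list that were compared had a ratio above 0. How many of all rows were above 0 was not counted, and their median was above 0 too. Of coding rows, 58.3% were as high as DROSHA (−0.03). At least 2-fold higher were 5 and lower 2, so that the share of higher genes was near the 17.7% of all rows. Of all rows, 14.1% were lower. The median of the 28 was 0.48, beside 0.17 over all rows and −0.63 over the 8 enzymes, a difference that was not tested.

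The helicases were also set beside other DEAD-box genes, 37 further rows of the DDX series of names, 26 of them above 0 in at least 1 group (DDX1 is in the list above too). AGO over IgG in the control population was past 2-fold upward for 4 of 23 such rows and downward for 12, with a median of −1.08. In miR-143 cells 0 of 22 were higher and 6 lower, with a median of −0.56. Of all rows compared, 34.5% were higher and 36.2% lower in control cells, and 26.6% and 33.5% in miR-143 cells. The medians over all rows were −0.19 and −0.22. The ratios of DDX17 (0.05 and 0.00) were above both medians of the DEAD-box rows and of all rows. That of DDX5 was above these medians in control cells and far below them in miR-143 cells. DDX5 was not alone in this. By the IgG-corrected ratio 7 of 24 DEAD-box rows were at least 2-fold lower and 10 higher, against 33.5% and 29.0% of all rows. DDX55 (−3.15) and DDX1 (−3.12) were lower than DDX5 (−3.02).

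**Figure D4:**
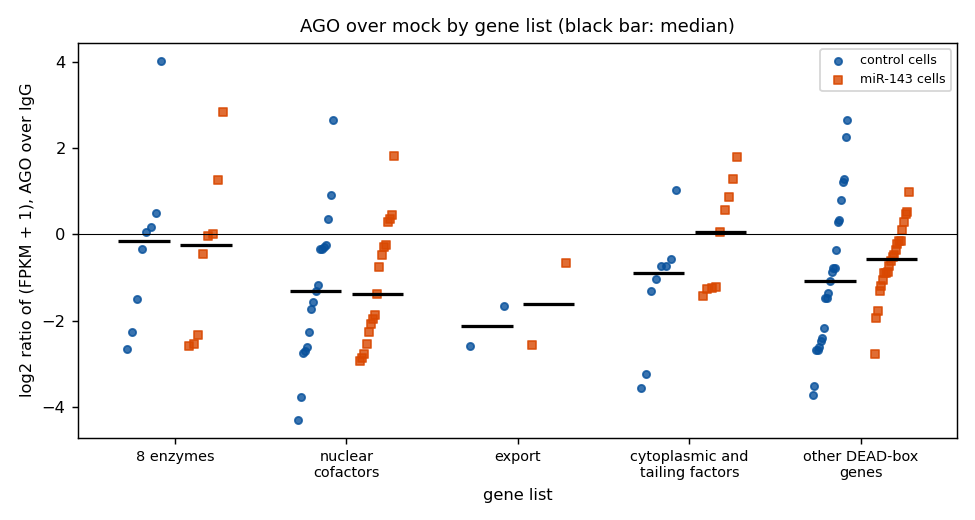
Log2 ratio of (FPKM + 1) in AGO over IgG by gene list, 1 point per gene, circles for control and squares for miR-143 cells, black bars for the medians. The median of the 17 nuclear cofactors was −1.32 and −1.38, while that of the 8 enzymes was −0.14 and −0.24, with XPO5 as the top point in both cell populations.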

How the data were processed

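The authors deposited 4 tables, 1 per group, each with 1 average FPKM per gene row. Per the labels and the methods, TopHat and Cufflinks were used with hg38, and versions and annotation are not given in the sources used here. The labels describe removal of ribosomal RNA and random priming, whereas the methods name a TruSeq RNA kit. Replicate values and library sizes were not analysed here, and no column was left unmapped.

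Groups were taken from the sample titles. Ratios were log2 of FPKM + 1, over rows of 1 FPKM or more in a group compared, and a row was called at 2-fold. Joined rows were kept and named as such. The authors' FPKM was not rescaled in the values reported. The design foresaw a limma test only for replicate values, so that none was run. The ratio code was tested on simulated data. Alternatives were pseudocounts of 0.1 and 0.01, 3 scalings, a mean of at least 5 FPKM, joined rows left out, rows of 1 name summed, and plain ratios, the last chosen after seeing the data.

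The low edge is the 10th lowest product of FPKM and transcript length above 0, over genes with 1 transcript in GENCODE 29 (GRCh38). As an average follows its deepest library, it gives no fragment counts. For a member, the product of its FPKM and the length of its longest coding transcript was divided by this edge. Locations, exons and 3′ UTRs came from GENCODE 29, found for all 8 members. MiRNA sequences came from RefSeq. Computation used Python 3.11.15, pandas 2.3.3 and NumPy 2.4.6.

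The genes named are the 8 members, the further lists by fixed rule, genes that overlap a member, and the rows nearest to DROSHA and DICER1. SRRT, XPO1 and the overlapping genes were singled out after their values were seen. The members and lists were chosen with earlier results of these data known. Some listed genes are not reported here by name.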

Additional observations from a re-analysis of the deposited data

Results flagged for a closer look

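For 4 members the ratio of miR-143 to control cells had opposite signs in the AGO and in the IgG precipitates, or the ratio of AGO over IgG had opposite signs in the 2 cell populations. The difference, which is the IgG-corrected log2 ratio, was −3.02 for DDX5, −1.19 for XPO5, 1.48 for TARBP2 and −0.12 for DROSHA. With 1 average per group these differences were not tested, and that of DROSHA is between ratios close to 0. The rule sets no minimum size, and how many of all rows meet it was not counted.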

How the results depend on the processing

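No paired analysis was possible because each deposited value is already an average over the replicates. Leaving out single replicates was not run either. The median over the members and the number of members past 2-fold in either direction stayed within 1.5 times (0.585 log2 units for a median) in every comparison with smaller pseudocounts, plain ratios, joined rows left out (which drops DROSHA), rows of 1 name summed, a mean of at least 5 FPKM, and scaling to the same upper quartile or coding sum. The calls of single members were less stable than this number, and DDX5, DDX17, XPO5, TARBP2 and DICER1 each gained or lost one under a scaling. With scaling to the same median, the median over the members for AGO over IgG in control cells went from −0.14 to 0.48, and that over all rows moved by 0.65. At a threshold of 10-fold the members past it were 0 between the AGO groups, and over the mock 1 with the control vector and 0 with miR-143. Of the ratios of single members, 6 moved by more than 1.5 times, all under scaling to the same median. No ratio of 2-fold or more changed sign under any of these alternatives. Close to the threshold, TARBP2 in control cells went from −1.50 to −0.88 and DDX5 from 0.49 to 1.11 with the same median, and to −0.99 and 1.00 with the same coding sum. The filter on a mean of 5 FPKM left out DGCR8 between the AGO groups and DICER1 over the mock in miR-143 cells. Depth limits the values in control_IgG most, since its low edge was the highest.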

Other observations

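The rows whose levels over the 4 groups were nearest to those of 2 members were looked up by the Euclidean distance of log2(FPKM + 1), over 4 values each. Nearest to DROSHA were RPS2P46 (distance 0.16), PGAM1 (0.25) and BCL2L1 (0.41), and nearest to DICER1 were B4GALNT1 (0.27), NF2 (0.36) and CHKA (0.36). NF2, for example, averaged 7.86 FPKM (control_IgG) and 9.99 FPKM (control_AGO) in control cells, then 1.64 FPKM (miR143_IgG) and 5.75 FPKM (miR143_AGO) with miR-143. The miRNA gene MIR3173, in an intron of DICER1, was listed at 0 in all 4 groups. DICER1-AS1, an antisense gene that shares 80 exonic bases with DICER1, was at 4.45 FPKM in miR143_IgG and listed at 0 elsewhere. A relation to the level of DICER1 was not tested. TRMT2A, which overlaps the end of DGCR8 by 12 exonic bases on the opposite strand, averaged 193.4 FPKM (control_IgG) and 229.6 FPKM (control_AGO) in control cells, then 177.4 FPKM (miR143_IgG) and 135.1 FPKM (miR143_AGO) with miR-143, all above the values of DGCR8.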
